A study of Mus musculus with 8 samples.

Results

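The comparison described here set Dnmt3a+/- against wild-type (WT) mice in their long-term haematopoietic stem cells (LT-HSCs), within the cells that do not show a Vwf-GFP reporter (Vwf- cells). Its members were the 2 Dnmt3a+/- and the 2 WT libraries of the GFP-negative sort, 4 of the 8 libraries of the series, taken by the genotype and reporter status in their names. The remaining 4 libraries came from the Vwf-GFP-positive (Vwf+) cells of the same genotypes and served here only to estimate the spread and to test whether a difference was particular to Vwf- cells. All cells were sorted from bone marrow by CD117, Sca1, high CD150 and low CD48 after lineage-marked cells were excluded, so every library also came from mice that carry the reporter. Mice were 10 to 12 months old, and RNA of 3 to 4 mice was pooled for each library. In each group replicate 1 was a male pool and replicate 2 a female pool, so the libraries were compared in a male pair and a female pair. The Dnmt3a allele is not described in the labels, and single mice were not resolved.

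Dnmt3a is a de novo DNA methyltransferase, an enzyme that places new methyl groups on cytosines, mostly where a cytosine precedes a guanine (CpG). In stem cells of the blood its loss is known for shifting the balance from differentiation to self-renewal, and heterozygous DNMT3A mutations are frequent in age-related clonal haematopoiesis. Vwf encodes von Willebrand factor, a platelet and endothelial protein. The reporter-positive LT-HSCs are known to be biased toward megakaryocytes and platelets, and the reporter-negative ones studied here toward the lymphoid and other lineages.

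Dnmt3a (chromosome 12, 3806007 to 3914443, GRCm38) was read in every library. Levels are given as CPM, counts scaled to a common library size, with replicate 1 before replicate 2. In Vwf- cells Dnmt3a stood at 361 and 275 CPM in heterozygotes against 251 and 202 CPM in WT. In the Vwf+ fraction the levels were 179 and 279 CPM against 175 and 203 CPM. Both Vwf- heterozygous libraries were thus above both Vwf- WT libraries, yet the log2 difference of 0.49 ± 0.19 (SE) did not pass (adjusted p = 1, edgeR quasi-likelihood test). Counts summed over the gene do not separate alleles, and the opposite-strand gene Dnmt3aos overlaps it, so this level does not check the genotype labels. Dnmt3b, the second de novo enzyme, stood at 127 and 125 against 114 and 134 CPM. Dnmt1, the maintenance enzyme, stood at 352 and 706 against 398 and 658 CPM and was higher in both female libraries. Vwf, on whose reporter the cells were sorted, stood at 116 and 104 CPM in Vwf- Dnmt3a+/- against 98.9 and 115 CPM in Vwf- WT, below the 1034 to 1409 CPM of the 4 Vwf+ libraries. The 10 markers of HSCs summed to 2287 and 2160 CPM in Dnmt3a+/- and to 2494 and 2212 CPM in WT cells, none of them passed, and genes of the X and Y chromosomes matched the labelled sex in all 8 libraries.

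Total counts of the 4 libraries ran from 27891160 to 39402418, the highest being the male Dnmt3a+/- library. Rn45s, the precursor of ribosomal RNA, made up 6.08% to 11.9% over the 8 libraries. The nuclear RNA Malat1 took 1.97% and 0.446% in Dnmt3a+/- and 1% and 0.585% in WT libraries of the Vwf- fraction, so it was highest in the male Dnmt3a+/- library.

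The question was which transcripts a heterozygous Dnmt3a allele alters in LT-HSCs outside the megakaryocyte-biased subset. Of 15917 expressed genes tested, 2 passed an adjusted p of 0.05, which is 0.0126%. Greb1 rose and Slfn2 fell, 0.00628% of the genes in each direction. The fit held the replicate number as a block. Without the block 0 genes passed in edgeR, with 211 at an unadjusted p under 0.05, while DESeq2 with the block called 9 genes and limma on the TPM values 0, with 445 (pseudocount 1) and 416 (0.1) at an unadjusted p under 0.05. With the block, 519 genes (3.26%) had an unadjusted p under 0.05, of which 329 were higher and 190 lower, against 796 that 5% of the genes would give. The median log2 difference over all genes was 0.00. Few genes thus passed the test between genotypes.

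The male and the female pair gave different lists of shifted genes. Across the 15917 genes the Dnmt3a+/- minus WT difference of the male pair had a Pearson r of -0.01 and a Spearman coefficient of -0.04 with that of the female pair, and 47.6% of genes had the same sign in both. This is a description across genes, which are not independent replicates. Among the 9745 genes with a mean of at least 10 CPM the r was -0.05 and the same sign was found for 46.8%. In the male pair 444 genes differed by over 2-fold, and 47.5% of them had the same sign in the female pair. In the female pair 670 did so, and 52.4% of them had the same sign in the male pair. With a mean of at least 10 CPM, 15 genes were past 2-fold in the male pair, 53.3% of them with the same sign in the female pair, and 33 in the female pair, 72.7% of them with the same sign in the male pair. Only 35 genes were past 2-fold in the same direction in both pairs, 29 of them higher and 6 lower in Dnmt3a+/- cells, and 0 of these had a mean of at least 10 CPM.

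**Figure D1:**
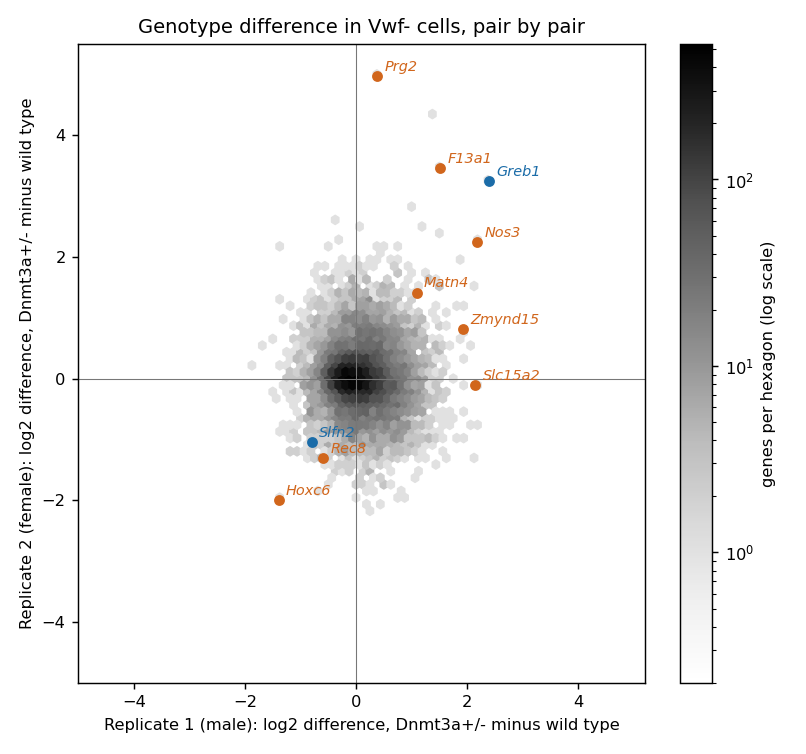
Each gene's log2 difference of CPM + 0.5, Dnmt3a+/- minus WT in Vwf- cells, in the male pair (horizontal axis) and in the female pair (vertical axis), as a density of 15917 genes on a log grey scale. The cloud has no diagonal trend (r = -0.01); blue points are the 2 genes that passed, Greb1 and Slfn2, and orange points are other genes named in the text.

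Greb1 (chromosome 12, 16670615 to 16800886) is an oestrogen-responsive gene that encodes a cofactor of the oestrogen receptor. It stood at 5.47 and 12.7 CPM in Dnmt3a+/- cells (9.1 ± 5.1, SD, n = 2) and at 0.637 and 0.901 CPM in WT cells (0.769 ± 0.19, SD, n = 2). In reads this was 229 and 399 counts against 18 and 30, and the groups did not overlap in either pair. It rose 11.2-fold, a log2 change of 3.48 ± 0.42 (SE, adjusted p = 0.0011, edgeR), with 2.39 in the male and 3.24 in the female pair. The level was low in WT cells and differed more between the male and the female heterozygous pools than between the WT pools.

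Slfn2 (chromosome 11, 83065112 to 83070678) belongs to the Schlafen family and is known for keeping T cells and monocytes quiescent. It stood at 27.3 and 19.6 CPM in Dnmt3a+/- cells (23.5 ± 5.4, SD, n = 2) and at 47.8 and 41.2 CPM in WT cells (44.5 ± 4.7, SD, n = 2). Both heterozygous libraries lay below both WT libraries. Slfn2 fell 1.91-fold, a log2 change of -0.93 ± 0.14 (SE, adjusted p = 0.015, edgeR), with -0.80 in the male and -1.05 in the female pair. Leaving out the female Dnmt3a+/- library ended this call (log2 change -0.82, adjusted p = 0.085).

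The start regions of the 2 genes are shown because Dnmt3a acts on CpG and the regions differ in it. Each runs from 250 bases before to 50 after a transcript start of RefSeq on GRCm38.p6, 5′ to 3′ on the gene's own strand, with each CpG in capitals. Greb1 lies on the minus strand at chr12:16800837-16801136, and Slfn2 on the plus strand at chr11:83064862-83065161.
Greb1: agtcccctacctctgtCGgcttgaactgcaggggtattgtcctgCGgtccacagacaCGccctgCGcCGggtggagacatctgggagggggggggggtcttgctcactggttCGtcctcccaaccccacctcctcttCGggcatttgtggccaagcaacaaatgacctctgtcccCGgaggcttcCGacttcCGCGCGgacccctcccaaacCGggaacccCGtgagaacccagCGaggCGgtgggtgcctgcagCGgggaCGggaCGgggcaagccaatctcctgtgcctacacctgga
Slfn2: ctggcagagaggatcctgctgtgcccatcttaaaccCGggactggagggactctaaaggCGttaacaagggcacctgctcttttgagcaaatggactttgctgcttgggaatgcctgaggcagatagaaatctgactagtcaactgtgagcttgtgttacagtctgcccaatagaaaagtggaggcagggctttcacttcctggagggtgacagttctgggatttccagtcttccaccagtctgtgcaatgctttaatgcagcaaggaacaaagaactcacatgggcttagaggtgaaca

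The Greb1 region held 19 CpG, close to the median of 18 over 14863 start regions of 11794 tested genes. Its observed over expected ratio was 0.59, below the median of 0.71. A second RefSeq start of Greb1 held 3. The Slfn2 region held 2 CpG, a ratio of 0.11. The region shown for Greb1 thus held more CpG than that shown for Slfn2. Which Greb1 start these cells use, and any link of CpG content to the direction of change, was not tested. Methylation was not measured in these libraries.

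The next genes by p were higher or lower in both pairs but did not pass. Zmynd15, which encodes a repressor known from spermatids, stood at 29 and 8.17 CPM in Dnmt3a+/- and 7.25 and 4.44 CPM in WT cells (1.46 ± 0.26 on the log2 scale with its SE, adjusted p = 0.087, edgeR). Matn4, which encodes the matrix protein matrilin-4, stood at 11.6 and 8.27 against 5.2 and 2.79 CPM (1.34 ± 0.25, adjusted p = 0.096). Nos3, the endothelial nitric oxide synthase, stood at 4.66 and 2.43 against 0.637 and 0.12 CPM, with 18 and 4 counts in the WT libraries (adjusted p = 0.24). In these 3 genes both Dnmt3a+/- libraries lay above both WT libraries, as 13.1% of all genes tested did. Each shares its locus with a tested gene on the opposite strand, Cxcl16, Rbpjl and Atg9b in this order, and the strand setting of the counting is not given in the sources used here. The transcript 4930447C04Rik, which overlaps Six6 in the same way, stood at 6.47 and 4.69 against 1.34 and 0.871 CPM (2.34 ± 0.43, adjusted p = 0.096). Kcnb2, a potassium channel gene, completed the 6 higher genes of smallest p with 12 and 24 counts against 0 and 2.

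Among the lower genes, Rec8, a cohesin subunit known from meiosis, stood at 71.4 and 34.1 CPM in Dnmt3a+/- and at 108 and 85.4 CPM in WT cells (-0.92 ± 0.18 on the log2 scale with its SE, adjusted p = 0.13, edgeR). Tjp1, the tight-junction scaffold ZO-1, stood at 16.6 and 23.9 against 31 and 44 CPM (-0.89 ± 0.19, adjusted p = 0.24), and its 2 pairs gave nearly the same difference, -0.88 and -0.86. Cd74, the invariant chain that escorts MHC class II, stood at 138 and 85.9 against 193 and 151 CPM (-0.65 ± 0.14, adjusted p = 0.24). The remaining members of this group were Plxdc2, a plexin-domain membrane protein, at 60.2 and 49.1 against 87.3 and 78.7 CPM, and Ncam2, a cell adhesion molecule, at 2.05 and 2.55 against 5.91 and 5.19 CPM. In all 5 genes both Dnmt3a+/- libraries lay below both WT libraries, as 10.2% of all genes tested did. DESeq2 passed Rec8, Cd74 and Plxdc2 beside Slfn2, and Zmynd15, 4930447C04Rik, Matn4 and Nos3 beside Greb1.

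**Figure D2:**
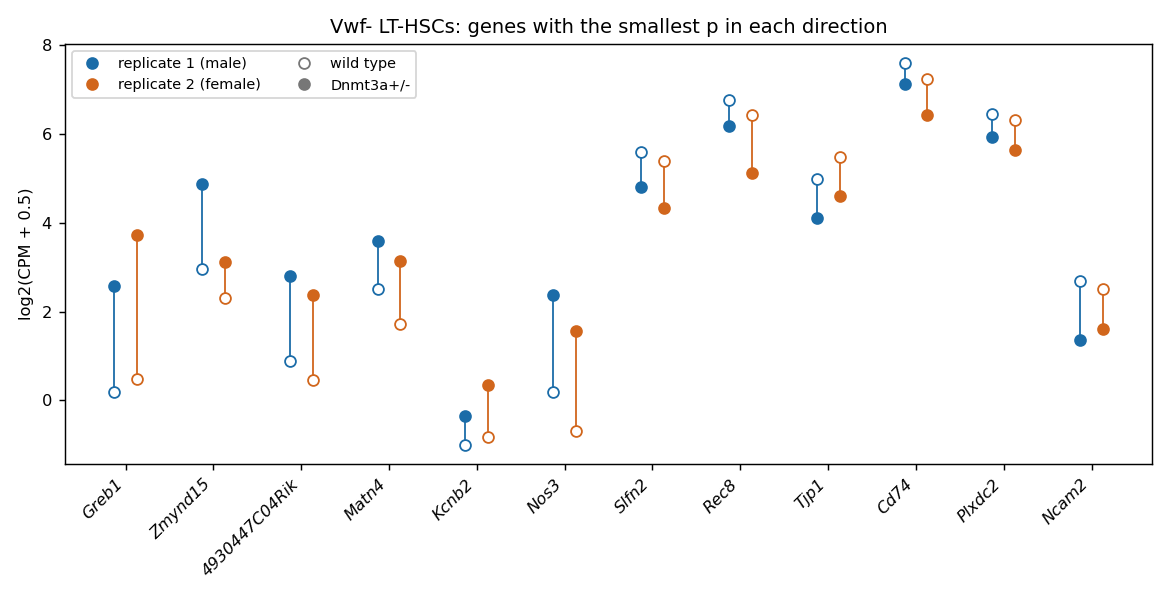
Levels of the 6 genes with the smallest p in each direction, as log2(CPM + 0.5), with WT as open and Dnmt3a+/- as filled points, the male pair in blue and the female pair in orange. Each line joins the 2 libraries of a pair; Greb1 and Slfn2 passed the test and the others did not.

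A second view takes genes by the smaller of their 2 pair differences, among genes with a mean of at least 1 CPM. By this rule the higher genes were Greb1, Nos3, 4930447C04Rik and 3 genes of myeloid cells and plasma. Ly6c2, a surface protein of monocytes, stood at 2.08 and 2.2 CPM in Dnmt3a+/- and 0.0708 and 0.42 CPM in WT cells. C3, the central complement component, stood at 5.9 and 7.06 against 1.7 and 0.901 CPM. F13a1, the coagulation factor XIII A chain of monocytes and platelets, stood at 6.81 and 15.9 against 2.05 and 0.991 CPM (2.76 ± 0.62 on the log2 scale with its SE, adjusted p = 0.26, edgeR). The lower genes were led by the homeobox gene Hoxc6, at 0.907 and 0.862 against 3.18 and 4.95 CPM (-2.18 ± 0.50, adjusted p = 0.28). Mpp3, a membrane scaffold gene, Esrrg, an orphan nuclear receptor gene, Tmem100, the collagen receptor gene Ddr1 and the kinesin gene Kif5c followed, none above 3.01 CPM in any of the 4 libraries. The rule itself sets the shared sign of these 12 genes, and only Greb1 of them passed.

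Other genes differed unequally or in opposite directions between the pairs. Prg2, an eosinophil granule gene, stood at 2.63 and 18 CPM in Dnmt3a+/- and 1.91 and 0.0901 CPM in WT cells, a pair difference of 0.38 in males and 4.97 in females. Ngp, a neutrophil granule gene, stood at 1.48 and 15 against 1.95 and 2.7 CPM. The opposite was found for Slc15a2, a peptide transporter gene, at 41.4 and 10.4 against 8.95 and 11.3 CPM (2.15 in males and -0.11 in females). Meg3, the imprinted non-coding RNA, stood at 26.3 and 4.79 against 8.6 and 10.2 CPM, higher in the male pair (1.56) and lower in the female pair (-1.02). The inducible chaperone gene Hspa1b stood at 15.3 and 2.97 against 3.61 and 4.38 CPM (1.95 and -0.49). In each of these 5 genes 1 heterozygous library stood apart from the other 3 libraries. Sex and replicate pool cannot be told apart as the source of such differences, because each sex is 1 pool per group.

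Interferon response genes stood lower on balance in Dnmt3a+/- Vwf- cells, but none of the 48 tested passed. Interferons induce antiviral effectors, guanylate-binding proteins (Gbp) and immunity-related GTPases such as Igtp and Irgm2. The median log2 difference of the list was -0.15, with -0.08 in the male and -0.22 in the female pair, against 0.00 over all genes. In both pairs 21 of 48 were lower and 2 higher, where 23.4% of all genes were lower and 24.2% higher in both. In 16 of the 48 both heterozygous libraries lay below both WT libraries, against 10.2% of all genes, and 11 had an unadjusted p under 0.05, all lower, against 1.19% of all genes. The male pair alone had 29 lower and the female pair alone 38, against 48.6% and 50.3% of all genes. Without the female WT library the median was -0.03, without the male WT library -0.22 and without either Dnmt3a+/- library -0.17.

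Several immunity-related and guanylate-binding GTPases were among the lower members. Igtp stood at 56.4 and 56.4 CPM in Dnmt3a+/- and at 74.8 and 99.2 CPM in WT cells (-0.62 ± 0.16 on the log2 scale with its SE, adjusted p = 0.49, edgeR). Irgm2 stood at 75.3 and 67 against 89.1 and 104 CPM, Gbp3 at 57.1 and 56.5 against 73.1 and 80.5 CPM, and Gbp7 at 138 and 140.4 against 170.2 and 194 CPM. These 4 genes had no overlap between the groups. Gbp4 differed between pairs, with 29.8 and 10.1 CPM against 28.9 and 33.3 CPM. Stat2, a signalling gene of the pathway, stood at 80.5 and 57 against 63 and 71 CPM and overlapped. Other members were near equal or higher in heterozygotes. The ubiquitin-like Isg15 stood at 3.58 and 4.95 against 3.82 and 4.44 CPM, the regulator Irf7 at 23.1 and 23.4 against 19.8 and 26.4 CPM, and the antiviral GTPase Mx1 at 5.59 and 6.39 against 3.11 and 4.83 CPM.

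MHC and antigen presentation genes were lower in both pairs in a larger share than any other of the 25 pathway lists. Of 17 tested, 14 were lower in both pairs and 0 higher, and in 11 both heterozygous libraries lay below both WT libraries, against 23.4% and 10.2% of all genes lower in these ways. None passed, and 5 had an unadjusted p under 0.05, all lower, against 1.19% of all genes. The median was -0.18, with -0.13 in the male and -0.26 in the female pair, and it ran from -0.24 to -0.16 over 19 alternative settings. By the fit the 6 members with the most negative differences belonged to the class II pathway, which presents peptides from endocytosed proteins to helper T cells. H2-Eb1, a class II beta chain, stood at 44.3 and 30.5 CPM in Dnmt3a+/- and 65.2 and 56.4 CPM in WT cells (-0.71 ± 0.18 on the log2 scale with its SE, adjusted p = 0.46, edgeR). H2-Aa stood at 62.1 and 38.9 against 73.5 and 65 CPM, and H2-Ab1 at 95 and 94.8 against 119.7 and 137 CPM. Ciita, the activator of class II transcription, stood at 20 and 14.2 against 21.3 and 27.8 CPM. These genes and Cd74 had no overlap between groups. The class I genes named here had no overlap either and differed by less, with H2-K1 at 1540 and 1530 against 1611 and 1614 CPM and H2-D1 at 137 and 147 against 150.0 and 159 CPM. The near-identical class I genes are of uncertain read assignment.

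Class II genes are also made by dendritic and B cells, and the markers of these cells were measured beside them. The 10 dendritic cell markers summed to 176 and 199.6 CPM in Dnmt3a+/- and to 184 and 188 CPM in WT cells, with none at 0 in all 4 libraries. Tcf4 took the largest share of these sums, at 96.1 and 109.8 against 99.4 and 115 CPM. Of the 7 tested markers 3 were higher and 2 lower in both pairs, against 24.2% and 23.4% of all genes. Clec9a was among the higher ones, at 18.6 and 11.7 against 12.4 and 7.18 CPM. The 11 B cell markers summed to 26.8 and 17.6 against 38.1 and 18.1 CPM, and Jchain made up most of the male WT sum at 21.4 CPM. Their part in the class II difference was not tested. In these bulk libraries fewer cells of a type and less RNA per cell cannot be told apart.

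The Schlafen family, interferon-inducible regulators of cell growth and RNA, had 8 tested members, of which Slfn2 passed. In both pairs 6 were lower and 2 higher, against 23.4% and 24.2% of all genes. In 4 of the 8 both heterozygous libraries lay below both WT libraries, against 10.2% of all genes. The median was -0.42. It was -0.20 without the female Dnmt3a+/- library and -0.26 with a stricter filter on low counts. Slfn5 stood at 21.2 and 28.4 CPM in Dnmt3a+/- and 32.9 and 39.3 CPM in WT cells (-0.55 ± 0.15 on the log2 scale with its SE, adjusted p = 0.56, edgeR), with no overlap. Slfn8 stood at 66.6 and 63.3 against 69.3 and 83 CPM. Slfn9 went the other way, with 67.5 and 138 against 61.1 and 98 CPM, and Slfn3 stood at 14.2 and 18.7 against 12.9 and 18 CPM. Slfn4 and Slfn14 were under 1 CPM in all 4 libraries. Members of this clustered family share sequence, so reads between them are of uncertain assignment.

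**Figure D3:**
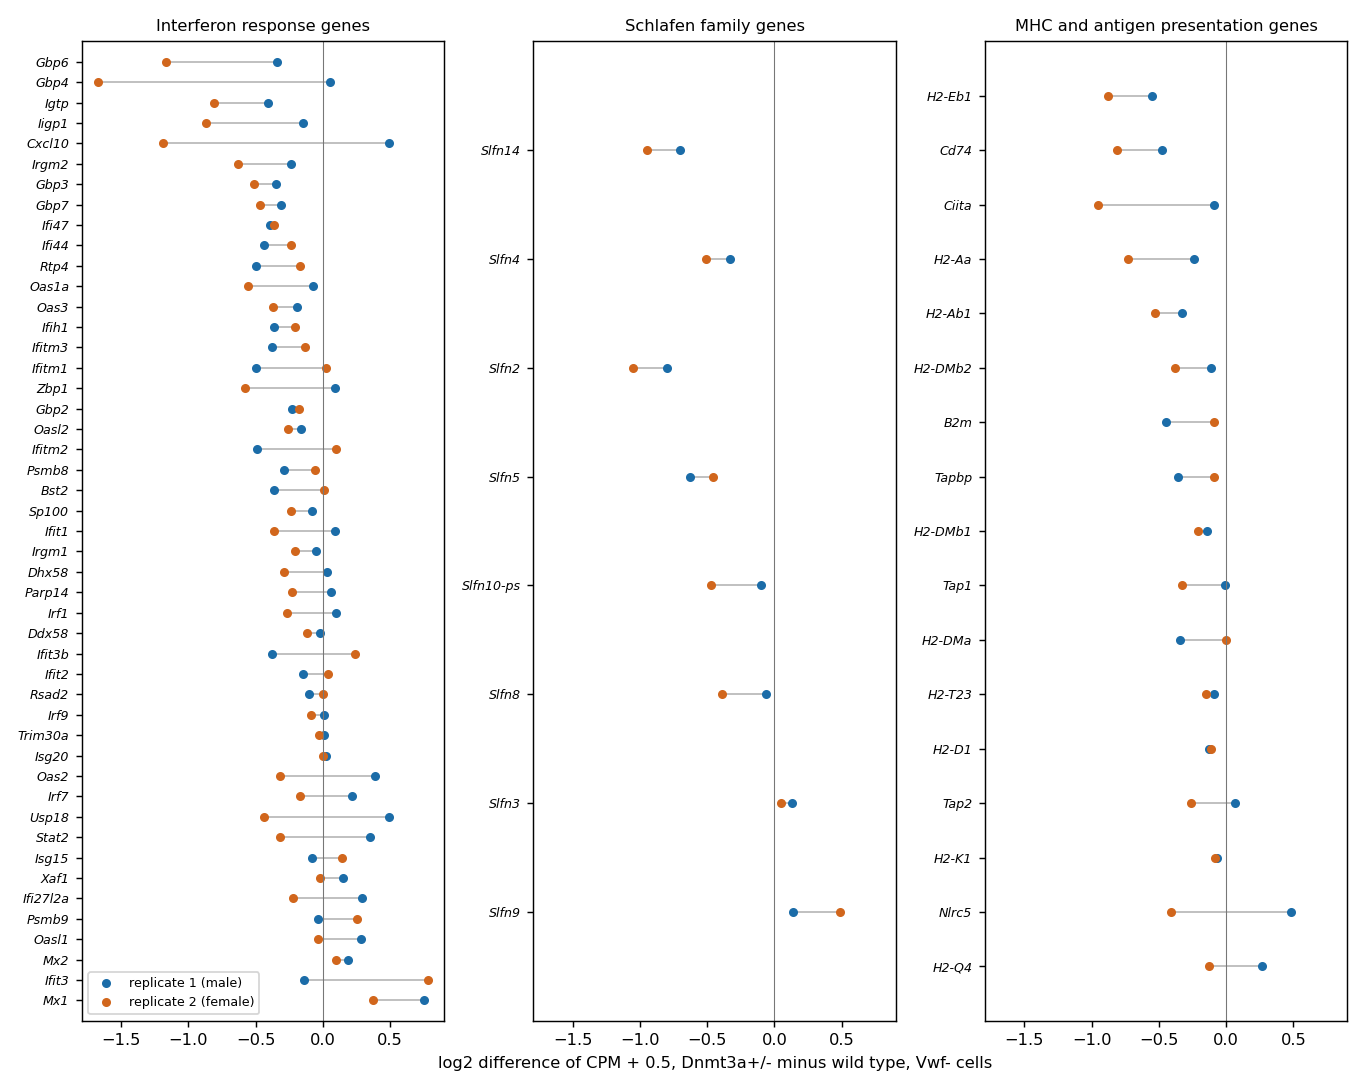
Log2 difference of CPM + 0.5, Dnmt3a+/- minus WT in Vwf- cells, for tested interferon response, Schlafen and MHC genes (1 interferon gene is not drawn), with the male pair in blue and the female pair in orange. Of the Schlafen genes 6 of 8 and of the MHC genes 14 of 17 have both points left of 0, and so do 21 of the 48 interferon genes when the one not drawn is counted.

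Promoters of interferon-induced genes often carry an element of GAAA, any 2 bases and GAAA, the core that interferon-activated factors bind. It was searched on both strands of the RefSeq start regions, and 3.01% of the 14863 start regions of tested genes held it. Of the 35 interferon response genes with a start region 21 held it, and 12 of these 21 were lower in both pairs, against 5 of the 14 without it. In the Schlafen family 3 of 7 held it, of which 2 were lower in both pairs, against 3 of the 4 without it. In the MHC list 2 of 12 held it and both were lower in both pairs, against 9 of the 10 without it. These counts carry no test. The start regions are shown for Igtp, Irgm2 and Slfn5, chosen for holding it and having no overlap between genotypes, with the element in capitals. They lie on the plus strand at chr11:58199306-58199605, chr11:58214727-58215026 and chr11:82951852-82952151.
Igtp: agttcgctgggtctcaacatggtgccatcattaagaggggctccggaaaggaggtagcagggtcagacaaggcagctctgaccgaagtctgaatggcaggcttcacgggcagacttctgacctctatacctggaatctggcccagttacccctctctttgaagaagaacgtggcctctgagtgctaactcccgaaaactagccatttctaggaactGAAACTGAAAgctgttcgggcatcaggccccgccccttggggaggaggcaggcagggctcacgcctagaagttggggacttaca
Irgm2: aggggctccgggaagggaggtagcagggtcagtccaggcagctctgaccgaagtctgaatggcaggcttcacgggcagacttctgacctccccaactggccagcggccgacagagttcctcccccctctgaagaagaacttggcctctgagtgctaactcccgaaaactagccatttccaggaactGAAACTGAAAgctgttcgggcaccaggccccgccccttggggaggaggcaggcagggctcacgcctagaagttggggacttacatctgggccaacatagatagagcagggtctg
Slfn5: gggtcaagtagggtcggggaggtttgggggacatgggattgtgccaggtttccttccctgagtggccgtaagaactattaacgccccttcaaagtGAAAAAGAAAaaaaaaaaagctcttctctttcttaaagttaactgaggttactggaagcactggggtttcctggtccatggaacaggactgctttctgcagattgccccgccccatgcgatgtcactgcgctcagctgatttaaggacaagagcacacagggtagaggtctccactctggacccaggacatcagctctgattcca

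The Igtp and Irgm2 regions hold the element in the same form, as neighbouring genes of 1 family, and the annotated Igtp gene overlaps Irgm2 on the same strand. The Slfn2 region shown above does not hold these letters. A match is a description of the sequence and not a measured binding site.

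Myeloid priming genes, the factors and granule proteins of the granulocyte and monocyte lineages, stood higher on balance at low levels. Of 24 tested, 13 were higher and 5 lower in both pairs, against 24.2% and 23.4% of all genes. Their median was 0.32 (0.23 in the male and 0.30 in the female pair), and 0 passed. The median was 0.56 without the male WT library, 0.50 without the female Dnmt3a+/- library and 0.21 without the female WT library. In 9 both heterozygous libraries lay above both WT libraries, against 13.1% of all genes, and 4 had an unadjusted p under 0.05 in this direction, against 2.07% of all genes. Gfi1 was the 1 lower member with such a p, against 1.19% of all genes. It stood at 17 and 4.57 CPM in Dnmt3a+/- and 25.2 and 5.73 CPM in WT cells. Ctsg, the granule protease cathepsin G, stood at 4.32 and 3.8 CPM in Dnmt3a+/- and 1.66 and 0.27 CPM in WT cells. Mpo, myeloperoxidase, stood at 28.9 and 24.8 against 19.8 and 8.44 CPM, Csf1r, the receptor of macrophage colony-stimulating factor, at 4.54 and 4.21 against 2.58 and 2.31 CPM, and the monocyte and dendritic factor Irf8 at 7.71 and 7.28 against 4.67 and 4.47 CPM. These 4 genes had no overlap between groups. Members at higher levels varied. The lineage factor Spi1 stood at 39.3 and 52.6 against 44.1 and 57 CPM, the factor Cebpb at 29.7 and 32.6 against 29.1 and 31.8 CPM and Lyz2, which encodes lysozyme, at 174 and 157 against 193 and 146 CPM. The growth factor receptor genes Csf3r and Csf2ra stood at 235 and 138 against 142 and 145 CPM and at 78.5 and 44.4 against 57 and 41.8 CPM, and both overlapped between groups.

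Markers of mature myeloid cells were measured beside these genes, and those of neutrophils and monocytes were higher mainly in the female pair. The 10 measured neutrophil markers summed to 7.45 and 40.1 CPM in Dnmt3a+/- and to 7.64 and 10.7 CPM in WT cells, with none at 0 in all 4 libraries. Without the female Dnmt3a+/- library the median log2 difference of the 9 tested ones was -0.40, against 1.19 with it. The monocyte and macrophage markers had a median of 0.84, which was 0.21 without that library and 0.37 without the female WT library. Of the 12 monocyte and macrophage markers 7 were higher in both pairs and 0 lower, against 24.2% and 23.4% of all genes. Their sums were 209.9 and 196 against 225 and 168 CPM, in which Lyz2 took the largest share. In the male pair alone 7 of the 12 were higher and in the female pair alone 12. The 13 markers of mast cells, basophils and eosinophils summed to 474 and 528 against 466 and 532 CPM, nearly all of it Gata2, which stem cells express. Mcpt4 and Tpsb2 of this list were at 0 in all 4 libraries. Of its 10 tested members 8 were higher in the male pair alone and 7 in the female pair alone. Both pairs agreed on 5 higher and 0 lower members, against 24.2% and 23.4% of all genes. Mcpt8 stood at 2.29 and 1.31 against 0.814 and 0.57 CPM, and Prss34 at 4.49 and 2.11 against 1.66 and 0.871 CPM. Epx, an eosinophil peroxidase, stood at 2.53 and 12.5 against 0.708 and 0.12 CPM, next to Prg2. Their part in the myeloid values was not tested.

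Megakaryocyte and platelet genes stood slightly lower in Vwf- Dnmt3a+/- cells. Of 28 tested, 13 were lower and 2 higher in both pairs, against 23.4% and 24.2% of all genes, with a median of -0.09 and 0 passing. F2r, the thrombin receptor, stood at 52.9 and 82.5 CPM in Dnmt3a+/- and 73.3 and 112 CPM in WT cells. Slc14a1, a urea transporter gene, stood at 23 and 31.4 against 32.9 and 40.1 CPM, and Plek, a platelet signalling protein, at 92.6 and 93.5 against 130.2 and 112 CPM. The pairs were parallel in these genes, with lower heterozygous values in each. In Vwf+ cells the median of the list was 0.08, and no test of a list was made between the fractions. The list linked to ageing and platelet bias of stem cells had 10 lower and 3 higher of 30, with a median of -0.01, and Aldh1a1, a retinal dehydrogenase gene, stood at 191 and 221 against 257 and 250.1 CPM.

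Erythroid genes had 8 higher and 2 lower of 20 tested in both pairs, against 24.2% and 23.4% of all genes, with a median of 0.10. The erythropoietin receptor Epor stood at 6.64 and 6.77 against 3.15 and 5.88 CPM. The 4 adult globin genes were listed at 0 in all 4 libraries. Lymphoid priming genes had 7 higher and 6 lower of 26 (median 0.00), with Notch1 at 131 and 128 against 116 and 109 CPM. No member of either list passed, and the lymphoid list as a whole stood at the median of all genes.

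Genes of stem cell identity gave little difference. Of 30 tested, 8 were higher and 11 lower in both pairs, against 24.2% and 23.4% of all genes, with a median of -0.05 and 0 passing. Among the sorted surface proteins, Slamf1, which encodes CD150, stood at 22 and 26.6 CPM in Dnmt3a+/- and 20.1 and 23.8 CPM in WT cells, and Kit, which encodes CD117, at 914 and 997 against 1033 and 1006 CPM. Procr, the endothelial protein C receptor, stood at 102 and 44.3 against 109 and 51.6 CPM and was lower in the females of both genotypes. The transcription factor genes Hlf and Mecom stood at 496 and 440.0 against 535 and 439 CPM and at 198 and 183 against 219 and 188 CPM. In the list of genes reported to rise in stem cells that lack Dnmt3a altogether, 4 of 14 were higher and 3 lower in both pairs, with a median of 0.04. Vasn of that list, which encodes the TGF-β-binding protein vasorin, stood at 90.1 and 29.8 against 48.5 and 36.6 CPM, higher in the male and lower in the female pair.

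The DNA methylation machinery beside Dnmt3a was near equal between genotypes. Of 21 tested writers, erasers and readers 4 were higher and 1 lower in both pairs, against 24.2% and 23.4% of all genes. Their median was 0.02. Tet2, an enzyme that oxidises methylcytosine, stood at 110.3 and 80.9 CPM in Dnmt3a+/- and 80 and 92.5 CPM in WT cells, and Tet1 at 115 and 77.4 against 90.5 and 105 CPM. Uhrf1, the partner of Dnmt1 at replication, stood at 109 and 298 against 139 and 235 CPM. The values of both Tet genes overlapped between groups, and Uhrf1 was higher in both female libraries than in both male libraries.

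Immediate-early, HOX, cilium and glycolysis genes had medians farther from 0 in the male than in the female pair, and this difference between the pairs was not tested. Over all tested genes the median absolute log2 difference was also larger in the male pair, at 0.22 against 0.17 in the female pair. Immediate-early genes, which respond to stimulation within minutes, had a median of 0.20, with 0.30 in the male and 0.04 in the female pair, and 24 of 28 were higher in the male pair alone against 15 in the female pair alone, where 51.2% and 49.4% of all genes were higher. Both pairs agreed on 12 higher and 1 lower member, against 24.2% and 23.4% of all genes. Nr4a1, an orphan nuclear receptor linked to stem cell quiescence, stood at 57.9 and 41.1 CPM in Dnmt3a+/- and 41.3 and 26 CPM in WT cells (0.57 ± 0.16 on the log2 scale with its SE, adjusted p = 0.88, edgeR), while Egr1 stood at 944 and 288 against 580.4 and 309 CPM. Jund stood at 778 and 322 against 554 and 270.1 CPM. Levels of Egr1 and Jund were higher in both male libraries than in both female libraries, as was the share of Malat1 given above. Without the male Dnmt3a+/- library the median of the list was -0.06, and without the female one 0.36.

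The Polycomb and HOX list stood at a median of 0.10, with 0.19 in the male and -0.00 in the female pair, and without 1 of the 4 libraries it ran from -0.02 (the male Dnmt3a+/- library left out) to 0.20 (the female WT library left out). Of 36 tested, 14 were higher and 6 lower in both pairs, against 24.2% and 23.4% of all genes. In the male pair alone 26 were higher and in the female pair alone 18. The homeobox gene Hoxb4, known for expanding stem cells when expressed from a transgene, stood at 42 and 19.3 CPM in Dnmt3a+/- and 20.7 and 15.2 CPM in WT cells (0.69 ± 0.18 on the log2 scale with its SE, adjusted p = 0.56, edgeR). Hoxa5 stood at 38.7 and 23.1 against 24.9 and 18.9 CPM, Hoxa6 at 24.5 and 14.3 against 14.6 and 11.1 CPM and Hoxb2 at 14.1 and 13.3 against 10.4 and 9.88 CPM. Only Hoxb2 of these 4 had no overlap between the groups, and each was higher within each pair. Of the 36, 2 were higher and 1 lower without overlap, against 13.1% and 10.2% of all genes.

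Axonemal dyneins and other cilium genes, which build motile cilia and are not known to work as such in stem cells, had a median of 0.32, with 0.43 in the male and 0.12 in the female pair. Of 22 tested, 9 were higher and 2 lower in both pairs, against 24.2% and 23.4% of all genes. In the male pair alone 15 were higher and in the female pair alone 14. The median was -0.04 without the male Dnmt3a+/- library and 0.56 without the female one. Dnah8, a dynein heavy chain gene, stood at 249 and 202 CPM in Dnmt3a+/- and 142 and 160.4 CPM in WT cells (0.58 ± 0.14 on the log2 scale with its SE, adjusted p = 0.46, edgeR). The tested genes Glo1 and 1700097N02Rik overlap Dnah8 on the opposite strand, so its reads are of uncertain assignment. Wdr90 stood at 65 and 56.5 against 39.8 and 41.1 CPM. Cfap74 stood at 26.3 and 7.06 against 5.8 and 4.83 CPM (1.41 ± 0.31, adjusted p = 0.26) and overlaps 5830444B04Rik on the opposite strand. All 3 had no overlap between groups. Both heterozygous libraries lay above both WT libraries in 6 of the 22 and below them in 1, against 13.1% and 10.2% of all genes. Glycolysis genes had a median of -0.14, -0.30 in the male and 0.03 in the female pair. In both pairs 9 of 21 were lower and 1 higher, against 23.4% and 24.2% of all genes. In the male pair alone 19 of the 21 were lower and in the female pair alone 10.

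Cell cycle genes went opposite ways in the pairs. Of 40 tested S phase genes, which replicate DNA, 30 disagreed in sign between the pairs, with medians of -0.17 in the male and 0.17 in the female pair and 0.01 in the fit. Of 35 G2/M genes, which run mitosis, 27 disagreed, with -0.16 in the male and 0.10 in the female pair and -0.02 in the fit. The mitotic ubiquitin enzyme gene Ube2c stood at 14.4 and 51.6 CPM in Dnmt3a+/- and 28.6 and 48.5 CPM in WT cells. In both lists the male pair was lower and the female pair higher in heterozygotes. Ccnd2, the D-type cyclin that leads cells out of quiescence, was lower in both pairs, at 325 and 395 against 530.4 and 503 CPM (-0.52 ± 0.15 on the log2 scale with its SE, adjusted p = 0.72, edgeR).

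Signalling and growth genes outside these groups had single members that stood apart without passing. Dlk1, the imprinted ligand-like protein of the Notch family, stood at 7.14 and 3.54 CPM in Dnmt3a+/- and 2.02 and 1.44 CPM in WT cells (1.60 ± 0.35 on the log2 scale with its SE, adjusted p = 0.24, edgeR), while the imprinted list had 6 higher and 7 lower of 33. Tgfb3, a TGF-β ligand, stood at 7.57 and 9.93 against 4.81 and 5.16 CPM, in a list of 27 with 8 higher and 11 lower. Cxcr4, the homing receptor of the niche, stood at 71 and 69.1 against 58.3 and 56.7 CPM, in a list of 24 with 7 higher and 9 lower. Bcl3, a nuclear NF-κB regulator, stood at 19 and 30.7 against 15.1 and 21.7 CPM, in a list of 26 with 8 higher and 3 lower. In the p53 list 4 of 25, in the heat shock list 2 of 17 and in the cholesterol synthesis list 2 of 23 were higher in both pairs, against 8, 1 and 8 lower. Of all genes 24.2% were higher and 23.4% lower in both pairs. Over the 25 pathway lists Slfn2 was the 1 member that passed.

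**Figure D4:**
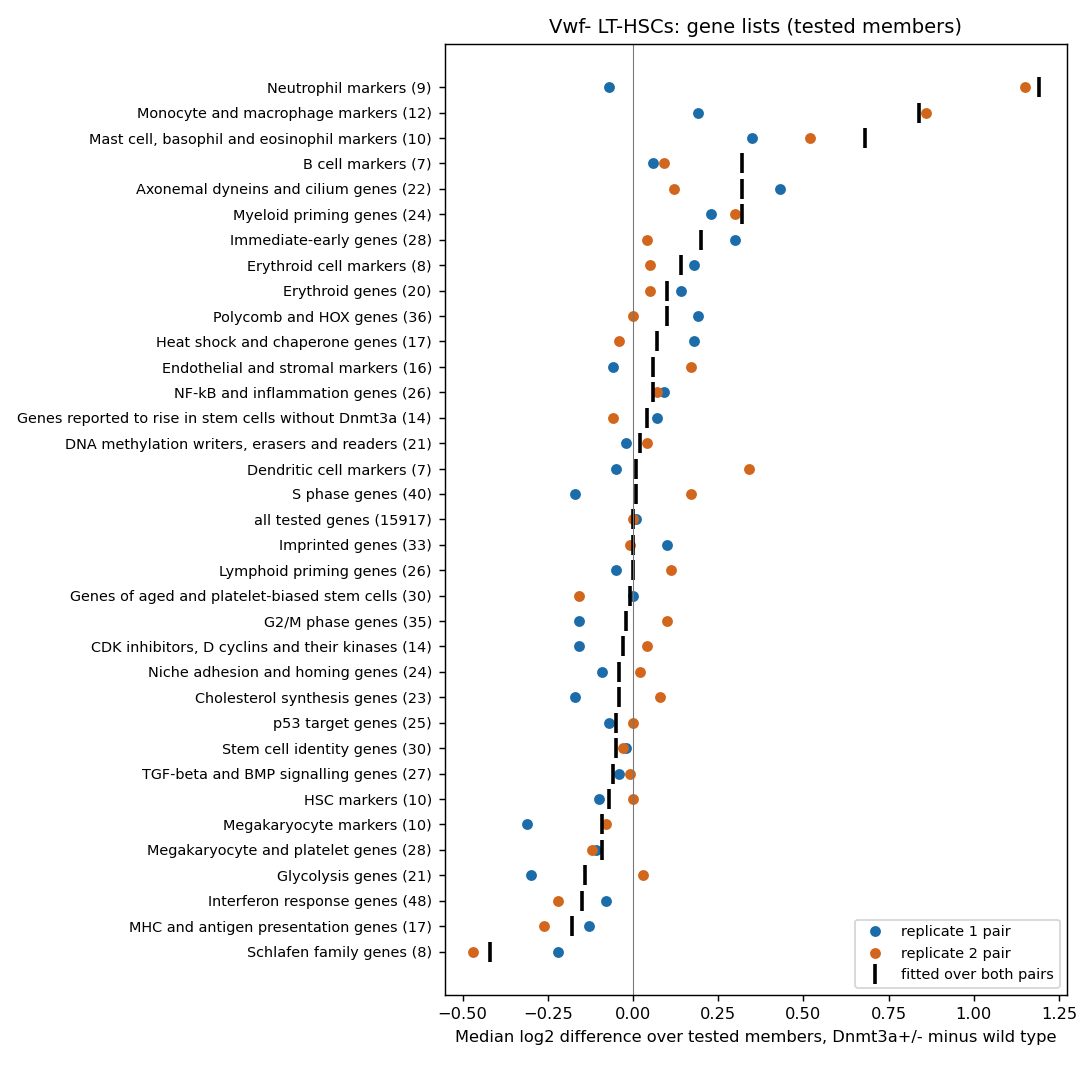
Median log2 difference, Dnmt3a+/- minus WT in Vwf- cells, over the tested members of each list with at least 7 of them (number in brackets), in the male pair (blue), the female pair (orange) and the fit over both (black bar). The interferon, MHC and Schlafen lists lie left of 0 in both pairs, and the S phase, G2/M and glycolysis lists have the pairs on opposite sides of 0.

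The difference between genotypes was then compared between the fractions, with the Vwf+ libraries fitted in the same model. No gene passed the test of the difference between fractions (0% of 15917 in edgeR, 365 or 2.29% with an unadjusted p under 0.05, and 0 in DESeq2, with 339), so no gene was shown to respond only in Vwf- cells. In Vwf+ cells 6 genes passed the genotype test (0.0377%), and 5.92% had an unadjusted p under 0.05. Greb1 stood at 6.53 and 10.1 CPM in Vwf+ Dnmt3a+/- and 0.675 and 1.64 CPM in Vwf+ WT cells, a log2 change of 2.92 ± 0.41 (SE, adjusted p = 0.006, edgeR). Slfn2 stood at 61.9 and 54.2 against 96.8 and 82.4 CPM there, -0.62 ± 0.14 (adjusted p = 0.2). Rec8 and Zmynd15, which missed the threshold in Vwf- cells, passed in Vwf+ cells at -1.11 ± 0.18 (adjusted p = 0.021) and 1.45 ± 0.26 (adjusted p = 0.043). Cfap74 did the same, at 2.33 ± 0.33 in Vwf+ cells (adjusted p = 0.006, edgeR). The differences of Tjp1, Cd74 and Ncam2 in Vwf+ cells were -0.86, -0.66 and -1.18, close to those in Vwf- cells. The labels do not say whether Vwf+ and Vwf- libraries of 1 genotype and sex came from the same mice.

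The genes with the smallest p for a difference between the fractions were Kcnb2, Plekhg3, Hrasls5 and Matn4, with adjusted p of 0.91, 1, 1 and 1. Matn4 was near equal between genotypes in Vwf+ cells, at 93.2 and 62.8 CPM in Dnmt3a+/- and 57.7 and 84.2 CPM in WT (a difference of 0.08 ± 0.21, SE), and the fractions differed by 1.26 ± 0.33 in the genotype effect. Its level in Vwf- Dnmt3a+/- cells lay between those of Vwf- WT and of Vwf+ cells. Plekhg3 was near equal in Vwf- cells, at 25.9 and 35.1 against 27.5 and 31 CPM, and higher in Vwf+ Dnmt3a+/- cells at 19.4 and 27.5 against 11.4 and 8.14 CPM. Hrasls5 had 5 and 12 counts against 0 and 0 in Vwf- cells, too few for a fold.

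The lists had the same sign in both fractions for interferon response genes (median -0.23 in Vwf+ cells, 31 of 48 lower in both pairs) and for MHC genes (-0.22, 13 of 17), where 23.6% of all genes were lower in both Vwf+ pairs. Glycolysis genes (-0.20, 14 of 21 lower) and cilium genes (0.56, 13 of 22 higher) also kept their sign. So did the median of the myeloid priming genes (0.33), with 4 members higher and 5 lower in both Vwf+ pairs. The median of the Schlafen family had the opposite sign in Vwf+ cells, at 0.13, with 4 members higher and 3 lower in both Vwf+ pairs. Of all genes 25.2% were higher in both. Slfn2 itself was lower in both Vwf+ pairs, at -0.64 and -0.60. G2/M genes differed in size, with a median of 0.40 and 24 of 35 higher in both Vwf+ pairs against -0.02 and 3 of 35 in Vwf- cells. These counts carry no test between the fractions.

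**Figure D5:**
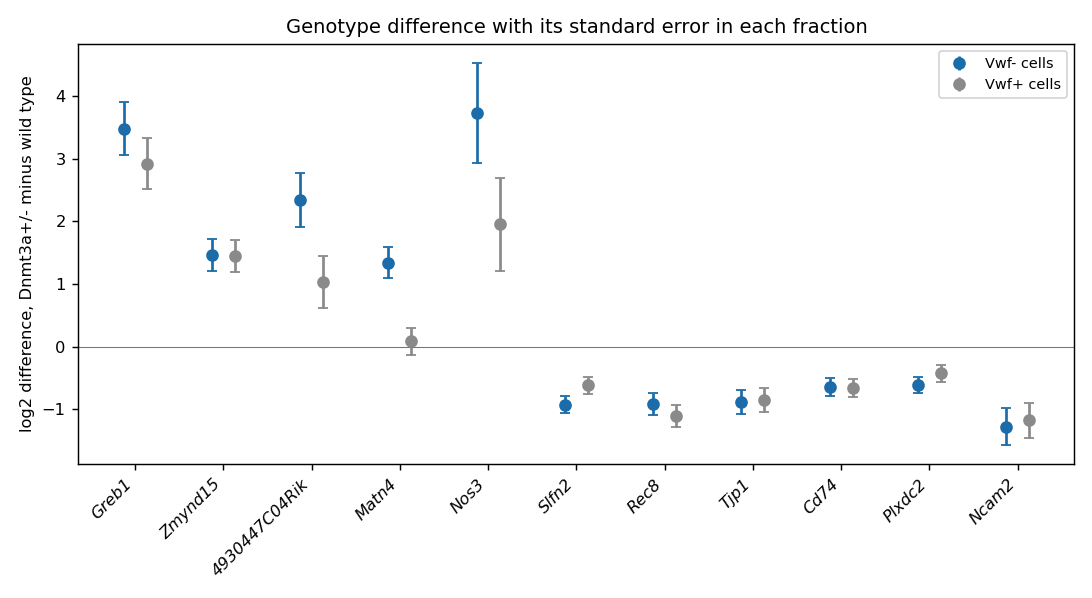
Log2 difference between Dnmt3a+/- and WT with its standard error, in Vwf- cells (blue) and Vwf+ cells (grey), for the genes with the smallest p in Vwf- cells (Kcnb2 left out for its low counts). Matn4 lies at 1.34 in Vwf- and 0.08 in Vwf+ cells; the test of the difference between fractions passed for none of them.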

How the data were processed

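RNA of 8 pools of sorted LT-HSCs was sequenced from a low-input total RNA kit, per the labels' protocols. Per the submitters' processing notes, mm10, STAR, Trim Galore, featureCounts and DESeq2 were used, with no roles given. The authors deposited raw read counts of 24421 genes and a table of TPM values. Annotation, strand setting and molecular identifiers are not given in the sources used here. Counts were tested with edgeR 4.0.16 in R 4.3.3 on all 8 libraries, with filterByExpr (minimum count 10), TMM scaling, 4 group means and the replicate number as a block (3 residual degrees of freedom), and Benjamini-Hochberg adjustment over 15917 genes at 0.05. The steps were checked on simulated data. Alternatives used DESeq2 1.42.0, limma 3.58.1 on log2(TPM + 1) and log2(TPM + 0.1), other scalings and filters, and left-out libraries. SE is the change divided by the root of F.

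The block was used because replicate 1 is male and replicate 2 female in every group. Replicate differences correlated across genes at 0.38, 0.45, 0.28, 0.33, 0.24 and 0.21 for the 6 pairs of groups. Pair differences are log2(CPM + 0.5), Dnmt3a+/- minus WT. P-values rest on the spread between pools that the group means and the replicate block left, over all 8 libraries. Differences between male and female pools that all groups share are taken out of it.

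Members, gene lists and rules were chosen with earlier results of these data known. Named genes were the 6 of smallest p in each direction, the 6 with the largest smaller pair difference, the 1 or 2 of smallest p in each list, marker genes, the 4 of smallest interaction p and those that differed most between pairs. Further list members were named for their role after their values were seen. Coordinates are from GENCODE M21, where 15277 tested genes had 1 gene of that symbol, and sequences from RefSeq. Further named genes overlap other tested genes, so their reads are of uncertain assignment. Among them are Hoxc6 (Hoxc5), Clec9a (Clec1b), Vasn (Coro7 and Dnaja3), Tgfb3 (Ttll5), Hoxa5 (Hoxa3 and Hoxaas3) and Plekhg3 (Sptb). In the interferon list 1 gene is counted and not reported here.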

Additional observations from a re-analysis of the deposited data

How the results depend on the processing

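For the genotype comparison in Vwf- cells, 2 genes passed in the main fit, and the same 2 passed with upper-quartile scaling, library size alone, a stricter filter and without X and Y genes. The count was 0 without the replicate block, 0 with limma on log2(TPM + 1), 0 on log2(TPM + 0.1), 9 with DESeq2 and 51 with no filter on low counts. With only the 4 Vwf- libraries it was 45 with the replicate block and 0 without it. Leaving out 1 library gave 9 to 73 genes: Greb1 passed each time, and Slfn2 each time but without the female Vwf- Dnmt3a+/- library. Calls of both genes were lost without the block (adjusted p = 1, edgeR) and with limma (0.38 and 0.53). The test between fractions called 0 genes in the main fit, 30 with no filter, 2 with limma on log2(TPM + 0.1) and 0 to 173 when 1 library was left out. On the TPM scale the median of all genes in that test shifted to -0.15 and -0.18. Greb1 and Slfn2 kept their sign in every setting. Medians of some lists did not, among them the immediate-early, cilium and neutrophil lists. The cause of these changes was not tested.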

Other observations

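After Greb1, 4930447C04Rik, Dlk1, Tgfb3, Meg3 and Plekhg3 were seen to lie on chromosome 12, as Dnmt3a does, the genes with an unadjusted p under 0.05 in edgeR were counted by chromosome. In Vwf- cells 24 of 518 tested genes of chromosome 12 had such a p (4.63%), against 3.26% of all genes. This was the second highest share, after 5.04% on chromosome 8 (40 of 793), and the lowest among the autosomes was 1.84% on chromosome 15 (11 of 598). In Vwf+ cells chromosome 12 had 35 of 518 (6.76%), against 5.92% of all genes and 7.19% on chromosome 4. Greb1, 4930447C04Rik, Dlk1 and Tgfb3, which prompted the count, are themselves among the 24 in Vwf- cells, so that share is not independent of them. The count covers the whole chromosome and does not examine the genes near Dnmt3a.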
